A study of Gallus gallus with 2 samples.

Results

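The genes described here mark adipocytes or handle stored fat, and they were chosen by name, with earlier results of these data known. They are the transcription factor gene PPARG, the fatty acid supply genes LPL, CD36 and FABP4, the triacylglycerol synthesis gene DGAT2, the lipid droplet genes PLIN1, CIDEC and CIDEA, the lipase gene PNPLA2, and the adipokine gene ADIPOQ. Of these 10 genes, 8 were found among the 15073 genes listed for breast muscle of Xichuan black-bone chickens. CD36 and FABP4 had no row under their symbol or under a known older symbol, so they were not analysed here. The control group was fed the basal diet, and test group IV was fed that diet with 0.8% tyrosine added. Birds of both groups were 12 weeks old and had been fasted before slaughter, and their sex is not given in the sources used here. RNA of 3 birds was pooled into a single RNA-seq library for each group, called the control library and the test IV library below, so no difference below has a replicate check and no P-value is given. RNA-seq counts the sequenced cDNA fragments of each gene, and the FPKM value divides that count by transcript length and sequencing depth.

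Intramuscular fat consists of adipocytes that lie between muscle fibres, and each adipocyte stores triacylglycerol in a large lipid droplet. Fatty acids reach the cell when lipoprotein lipase splits circulating triacylglycerol at the vessel wall, and they are bound inside the cell by fatty acid binding proteins. They are then joined to glycerol by acyltransferases, stored behind a coat of perilipin and CIDE proteins, and released again by lipases. In mammals PPARG is the main transcription factor of adipocyte differentiation, and adiponectin, the product of ADIPOQ, is a hormone made almost only by adipocytes. LPL, PNPLA2 and DGAT2 are also used by muscle fibres, so their RNA in whole muscle need not come from fat cells. Which cells of chicken muscle hold the ADIPOQ RNA was not tested here either. In bulk tissue, fewer cells of a type and less RNA per cell cannot be told apart.

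The control library held 13135159 counted fragments, and the test IV library held 14318101. No listed gene was without fragments in the control library, so a gene seen only in the test IV library was not analysed here. The labelled tissue was checked by 10 muscle markers, of which 6 were listed. The troponin gene TNNT3, picked out after its values were seen, had the highest FPKM of them, 9943 in the control library and 9424 in the test IV library. The lowest were MB, with FPKM values of 8.65 and 6.89, and PVALB, with only 1 and 5 fragments. Fold changes were obtained by dividing the FPKM of the test IV library by that of the control library, and a negative log2 fold change (log2FC) means a lower level in the test IV library. The 95% intervals of fold changes are Clopper-Pearson intervals from the fragment counts of both libraries. They cover counting error only, since copies made by PCR were not separated from original molecules and variation between birds was not measured.

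Of the 8 listed genes, 7 had a lower FPKM in the test IV library than in the control library, and only CIDEA had a higher one. Counting error alone covered the differences of DGAT2, CIDEA and, in the deposited scaling, CIDEC. For CIDEC this depended on how the libraries were scaled. The genes spanned a wide range of levels in the control library. PNPLA2 had the highest FPKM, 153, at percentile 98.4 of all listed genes, followed by ADIPOQ with 53.4 at percentile 94.4. DGAT2 (FPKM 16.5) and LPL (13.8) came next, and their 95% Poisson counting intervals overlapped. PLIN1, CIDEA and PPARG followed with FPKM values of 1.85, 1.64 and 1.38, which counting error did not separate from each other, and CIDEC was the lowest with 0.422. In the test IV library the order was kept from PNPLA2 (57.4) and ADIPOQ (36.4) to DGAT2 (15.9) and LPL (7.36), where DGAT2 and LPL no longer overlapped. CIDEA (2.42) there stood above PPARG (0.768) and PLIN1 (0.750), and CIDEC was listed at 0.

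**Figure D1:**
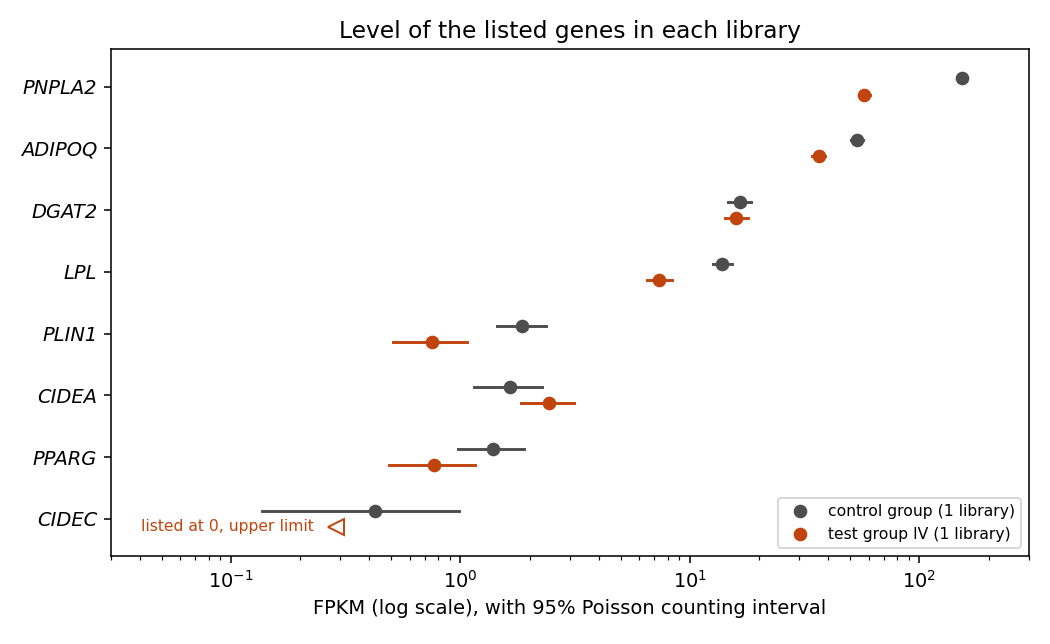
FPKM (log axis) of the 8 listed genes in the control library (grey) and the test IV library (orange), 1 library each, with 95% Poisson counting intervals as bars. The values of PNPLA2 (153 and 57.4) and LPL (13.8 and 7.36) lie apart without overlap of their intervals, the 2 values of DGAT2 nearly coincide, and the open triangle marks the upper counting limit of 0.286 for CIDEC in the test IV library.

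PPARG lies on chromosome 12 of Galgal5 from 4859854 to 4880521. It had 38 fragments in the control library and 23 in the test IV library, with FPKM values of 1.38 and 0.768. The log2FC was -0.85, with a 95% interval from -1.66 to -0.06, so the interval ended just below no change. Other factors of the adipogenic program went both ways. CEBPD, which acts early in adipocyte differentiation in mammals and also responds to glucocorticoids and inflammation, had 749 and 231 fragments, a log2FC of -1.82 (95% interval from -2.04 to -1.61). It was 3.54-fold lower in the test IV library, the largest difference among the genes listed as partners that had more than 10 fragments. CEBPB was lower by less, with FPKM values of 89.4 and 68.3 and a log2FC of -0.39 (95% interval from -0.49 to -0.28). PPARA, the relative of PPARG that governs fatty acid oxidation, had 103 and 72 fragments and a log2FC of -0.64 (95% interval from -1.10 to -0.19). The interval of PPARD, from -0.07 to 0.32 around 0.12, included no change, as did that of the coactivator gene PPARGC1A, from -0.45 to 0.29 around -0.08. Among the 22 factors of this list other than PPARG with a mean FPKM of at least 0.1, 11 were lower and 11 higher in the test IV library. Over all 14094 listed genes at that level, 42.8% were lower and 57.2% higher. The counting interval lay below no change for 6 factors and above it for 7, against 1838 and 3313 of the 14094 genes. CEBPD was the only factor with a 2-fold difference, whereas 6.87% of the 14094 genes were 2-fold lower and 5.43% higher. The same shares stand beside the counts of the other lists below. The median log2FC of the 22 factors was 0.01, against 0.07 over the 14094 genes, both with 0.1 added to each FPKM value.

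LPL, which encodes lipoprotein lipase, lies on chromosome Z from 54528388 to 54543657. The control library had 422 LPL fragments and the test IV library 245, and its FPKM values were 13.8 and 7.36. The level in the test IV library was 1.88-fold lower, a log2FC of -0.91 (95% interval from -1.14 to -0.68), and the position of LPL among all listed genes moved from percentile 78.8 to percentile 65.3. LMF1, needed for folding of the enzyme, had 52 and 40 fragments, and ANGPTL4, which encodes an inhibitor of the enzyme, had 26 and 21. The intervals of their log2FC values, from -1.14 to 0.12 for LMF1 and from -1.34 to 0.45 for ANGPTL4, included both no change and the value of LPL. VLDLR, a receptor that takes up triacylglycerol-rich lipoproteins and, like LPL, lies on chromosome Z, went the opposite way. It had 1951 and 3616 fragments, FPKM values of 46.1 and 78.3, and a log2FC of 0.77 (95% interval from 0.69 to 0.85). The FPKM of LPL was therefore 0.300 times that of VLDLR in the control library and 0.0940 times in the test IV library. Of the 8 other genes of the lipoprotein lipase list, 5 were lower and 3 higher in the test IV library, with a median log2FC of -0.16 and no 2-fold difference.

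FABP3, the form of heart and skeletal muscle, had an FPKM of 152 in the control library and 150.0 in the test IV library, a log2FC of -0.02 (95% interval from -0.12 to 0.09). FABP5 had FPKM values of 77.5 and 66.3, a log2FC of -0.23 (95% interval from -0.34 to -0.11). FABP7 had only 2 and 1 fragments, too few to compare. The transporter gene SLC27A1 had FPKM values of 18.4 in both libraries, and ACSL1, which activates fatty acids by joining them to coenzyme A, had 35.3 and 34.7. SLC27A6, a fatty acid transporter gene of the same family, was higher in the test IV library, but with only 2 and 14 fragments its 95% interval extended from 0.56 to 5.86 on the log2 scale. Over the 16 genes of uptake and binding with a mean FPKM of at least 0.1, none of them among the genes chosen here, 9 were lower and 7 higher, and the median log2FC was -0.02.

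DGAT2, which encodes an enzyme of the last step of triacylglycerol synthesis, lies on chromosome 1 from 194877499 to 194892393. It had 285 fragments in the control library and 301 in the test IV library, and FPKM values of 16.5 and 15.9. The log2FC of -0.05 had a 95% interval from -0.28 to 0.19, so a difference within that range was not detectable at this depth. GPAM, which encodes a mitochondrial acyltransferase of the first step, was lower in the test IV library with 122 and 97 fragments (log2FC -0.46, 95% interval from -0.86 to -0.06). MOGAT1, another acyltransferase gene, had a log2FC of -1.24, but its 13 and 6 fragments left an interval from -2.92 to 0.26. Of the 10 synthesis genes other than DGAT2, 5 were lower and 5 higher in the test IV library, with a median log2FC of 0.02. For the synthesis of fatty acids themselves, FASN had FPKM values of 1.79 in both libraries, and SCD had 11 and 10 fragments.

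The 3 genes of the lipid droplet surface had unequal values, and all 3 rested on under 100 fragments over both libraries. PLIN1, which encodes the perilipin that coats the droplets of adipocytes, lies on chromosome 10 from 12822224 to 12826841. It had 68 fragments in the control library and 30 in the test IV library, with FPKM values of 1.85 and 0.750. The level was 2.47-fold lower in the test IV library, a log2FC of -1.31 (95% interval from -1.98 to -0.67). After adding 1 to both FPKM values the difference was under 2-fold, at -0.71 on the log2 scale. CIDEC, whose product fuses small droplets into large ones, lies on chromosome 11 from 18614455 to 18616321 and overlaps ZFPM1. It had 5 fragments in the control library and 0 in the test IV library. If 3 fragments are taken as the most that a count of 0 allows, CIDEC was at least 1.82-fold lower in the test IV library. With the counting error of both libraries, however, the upper end of its interval was at a log2FC of 0.0014, which includes no change. Scaling the libraries by the median ratio or the trimmed mean lowers log2FC values by 0.09 or 0.07, and this upper end is then below no change. The libraries were made with a kit that keeps the strand, whereas the strand setting of the counting is not given in the sources used here, so fragments of CIDEC and ZFPM1 may have been shared. None of the other 7 genes overlapped another listed gene.

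CIDEA, a droplet protein gene of the same family that marks brown fat in mammals, lies on chromosome 2 from 97484738 to 97493933. It had 36 fragments in the control library and 58 in the test IV library, with FPKM values of 1.64 and 2.42. The log2FC was 0.56 with a 95% interval from -0.06 to 1.21, which includes no change. Its interval did not overlap that of PLIN1. PLIN2, the perilipin of many cell types including muscle fibres, was far more abundant than PLIN1, with FPKM values of 42.8 and 35.3 and a log2FC of -0.28 (95% interval from -0.39 to -0.17). The FPKM of PLIN1 was thus 0.0433 times that of PLIN2 in the control library and 0.0213 times in the test IV library, a log2 difference of -1.02 with a 95% counting interval from -1.70 to -0.37.

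PNPLA2 encodes adipose triglyceride lipase, which takes the first fatty acid from stored triacylglycerol. It had the lowest log2FC of the 7 genes with fragments in both libraries, although counting error did not separate it from those of PLIN1 and PPARG. PNPLA2 lies on chromosome 5 from 15758209 to 15779721. The control library had 3070 PNPLA2 fragments and the test IV library 1257, and its FPKM values were 153 and 57.4. The level was 2.66-fold lower in the test IV library, a log2FC of -1.41 (95% interval from -1.51 to -1.32). By FPKM, PNPLA2 ranked 245 among the 15073 listed genes in the control library and 795 in the test IV library.

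The partners of this lipase did not follow it in proportion. G0S2 encodes a small protein that inhibits the lipase in mammals, and it was higher in the test IV library, with 190 and 406 fragments and FPKM values of 20.7 and 40.6. Its log2FC was 0.97 (95% interval from 0.72 to 1.23). PNPLA2 was therefore 7.39 times as high in FPKM as G0S2 in the control library and 1.42 times in the test IV library, a log2 difference of -2.38 with a 95% counting interval from -2.66 to -2.11. ABHD5, whose product activates the lipase, was slightly lower, with FPKM values of 20.8 and 17.2 and a log2FC of -0.27 (95% interval from -0.39 to -0.16). MGLL, the lipase of the last step, had FPKM values of 12.1 and 11.9, and its interval from -0.19 to 0.14 included no change. Over the 7 lipolysis genes other than PNPLA2, 3 were lower and 4 higher in the test IV library, none by 2-fold, and the median log2FC was 0.08.

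ADIPOQ lies on chromosome 9 from 5223114 to 5225251. It had 1201 fragments in the control library and 893 in the test IV library, and FPKM values of 53.4 and 36.4. The level was 1.47-fold lower in the test IV library, a log2FC of -0.55 (95% interval from -0.68 to -0.43). ADIPOR1 had FPKM values of 25.3 and 30.1 (log2FC 0.25, 95% interval from 0.07 to 0.44), and ADIPOR2 had 91.3 and 100.2 (log2FC 0.13, 95% interval from 0.05 to 0.22). With the libraries scaled by the median ratio, the trimmed mean or TMM (trimmed mean of M-values), log2FC values are up to 0.09 lower, and the intervals of both receptor genes then include no change. CDH13, a membrane protein gene whose product binds adiponectin, had FPKM values of 64.2 and 56.4 (log2FC -0.19, 95% interval from -0.26 to -0.11). LEPR, the leptin receptor gene, was higher in the test IV library, but its 2 and 19 fragments left an interval from 1.07 to 6.27 on the log2 scale. Of the 13 receptor and adipokine genes other than ADIPOQ, 5 were lower and 8 higher in the test IV library, with a median log2FC of 0.13.

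**Figure D2:**
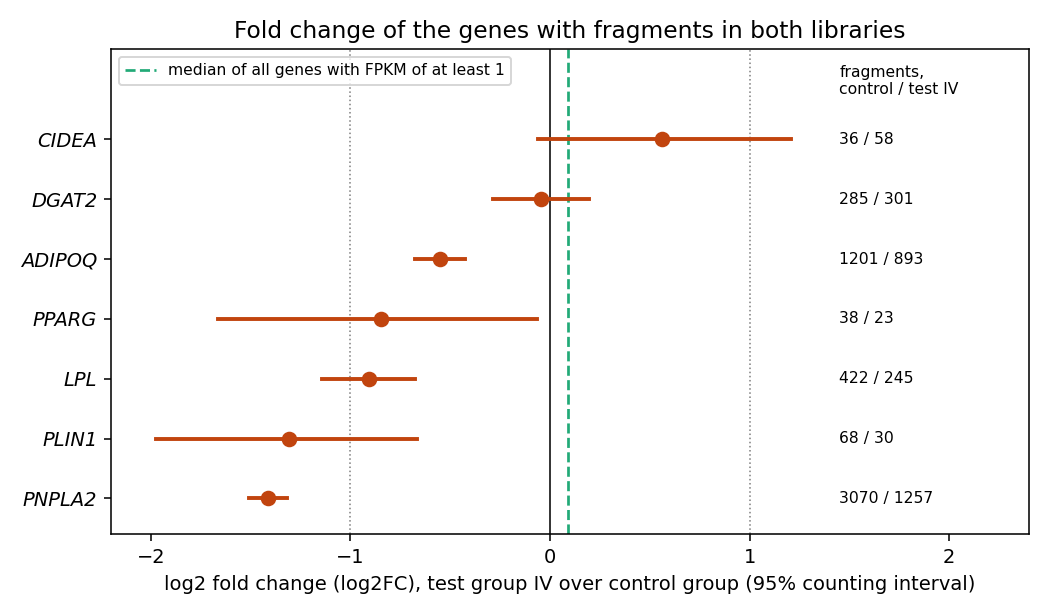
The log2 fold change (log2FC) of the 7 genes with fragments in both libraries (points) with 95% counting intervals (bars), test IV over control, and the fragment counts at the right. The dashed line is the median of all genes with an FPKM of at least 1 (0.09) and the dotted lines mark 2-fold. PNPLA2, PLIN1, LPL, PPARG and ADIPOQ lie wholly below 0, and the intervals of DGAT2 and CIDEA include 0.

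The genes were then set against the 11010 genes whose FPKM reached at least 1 in either library, with 7 of the 8 genes among them. CIDEC did not reach this level. PLIN1 and PPARG reached it only in the control library, so that a lower value in the test IV library was favoured for them by the filter itself. At least 2-fold lower in the test IV library were 2 of the 7 genes, PNPLA2 and PLIN1, against 3.31% of all genes, and 0 of the 7 were at least 2-fold higher, against 3.10%. At least 1.5-fold lower were 4 of the 7, PNPLA2, PLIN1, LPL and PPARG, against 8.24%. The counting interval lay below no change for 5 of the 7 genes, the same 4 and ADIPOQ, against 15.3% of all genes. An FPKM ratio under 1 was found in 6 of the 7, against 39.4%. The median log2FC of the 7 genes was -0.85, which is the value of PPARG, and that of all 11010 genes was 0.09. The counts and this median include PLIN1 and PPARG, which the filter favoured. Without these genes only PNPLA2 was at least 2-fold lower, and only PNPLA2 and LPL were at least 1.5-fold lower. Among all genes with 200 or more fragments over both libraries, where PNPLA2, ADIPOQ, LPL and DGAT2 belong, 1.72% were at least 2-fold lower and 5.03% at least 1.5-fold lower. Among genes with 50 or more but under 200 fragments, where PLIN1, CIDEA and PPARG belong, these shares were 3.76% and 11.1%. Of the 11010 genes, 1.68% had a lower log2FC than PNPLA2, 1.90% a lower one than PLIN1, 3.97% than LPL and 8.88% than ADIPOQ. These counts describe the 2 libraries and not the diets. Because the genes were chosen with earlier results of these data known, the shares of all genes beside them are no test of the set.

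**Figure D3:**
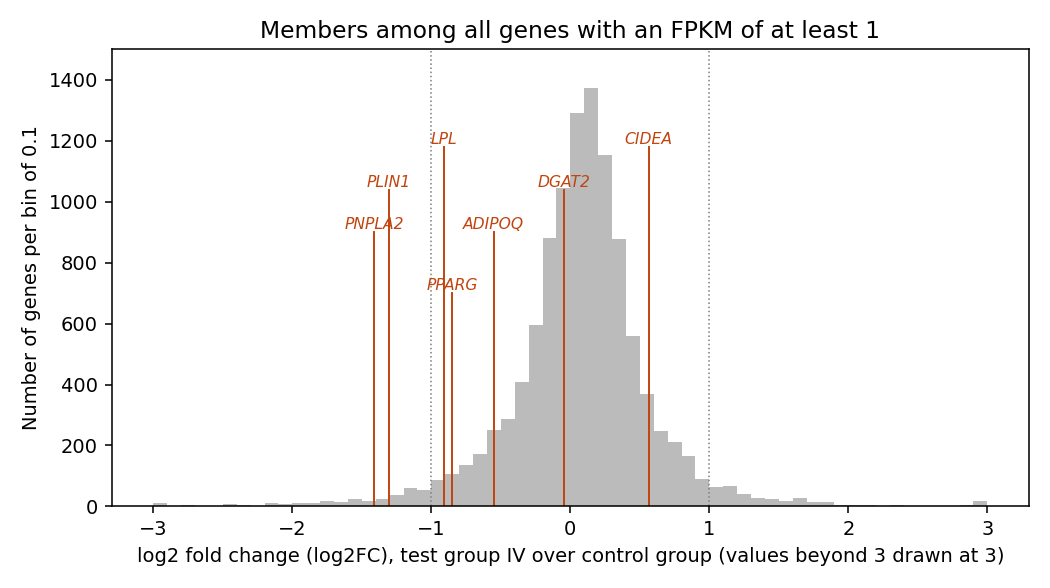
The log2FC values (test IV over control, bins of 0.1) of the genes whose FPKM reached at least 1 in either library, without the 37 genes at 0 in the test IV library. Orange lines mark the 7 genes with fragments in both libraries, and the dotted lines mark 2-fold. PNPLA2 (-1.41) and PLIN1 (-1.31) lie in the lower tail, DGAT2 (-0.05) is near the centre, and CIDEA (0.56) is above it.

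The lower levels were also unequal among the genes themselves. The ratio of FPKM values between a pair of genes does not depend on how the libraries are scaled, and 21 such pairs can be formed from the 7 genes with fragments in both libraries. The ratio differed between the libraries beyond the 95% counting interval in 13 pairs, and the interval included no difference in 8. PNPLA2 was 2.87 times as high as ADIPOQ in the control library and 1.58 times in the test IV library, a log2 difference of -0.86 (95% interval from -1.02 to -0.70). ADIPOQ was 28.8 times as high as PLIN1 in the control library and 48.5 times in the test IV library, a log2 difference of 0.75 (95% interval from 0.10 to 1.44). The ratio of ADIPOQ to LPL was 3.86 and 4.94, a log2 difference of 0.36 (95% interval from 0.09 to 0.62). DGAT2 and LPL were nearly level in the control library, with a ratio of 1.19, and the ratio was 2.17 in the test IV library. The ratios of PNPLA2 to PLIN1 (82.5 and 76.6) and of PLIN1 to PPARG (1.34 and 0.977) differed by less than the counting error. The intervals are not adjusted for the number of pairs.

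**Figure D4:**
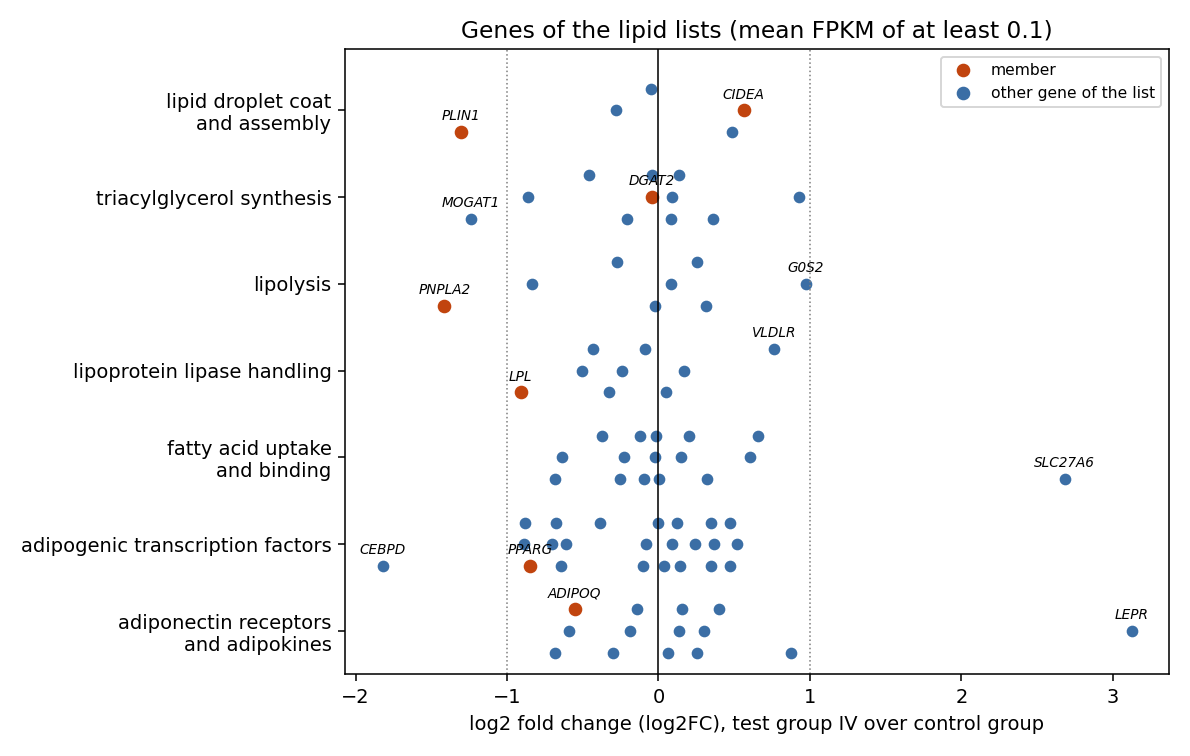
The log2FC (test IV over control) of the genes of 7 lipid lists with a mean FPKM of at least 0.1 and fragments in both libraries, one row per list. Orange points are the genes described here and blue points the other genes of each list, and the dotted lines mark 2-fold. PNPLA2 (-1.41) and G0S2 (0.97) lie at opposite ends of the lipolysis row, as do LPL (-0.91) and VLDLR (0.77) in the row of lipoprotein lipase handling.

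Of a list of 15 adipocyte markers 9 were listed, and 6 of these are genes described above, so the list is no separate check of them. FABP4, CEBPA, THRSP, ADIG, TRARG1 and PLIN4 had no row under their symbol, and may be among the 5006 genes listed without a symbol. Of the 9, 8 were lower in the test IV library and only G0S2 was higher, against 42.8% of all 14094 genes that were lower. Among the 8 is CIDEC, for which a lower value was favoured because every listed gene had fragments in the control library. Of the genes described above, the list leaves out CIDEA, which was higher in the test IV library, and PNPLA2, which was lower. The counting interval lay below no change for 5 of the 9, against 1838 of the 14094 genes. The median log2FC of the 9 was -0.77. The 3 markers that were not chosen, RBP7, SCD and G0S2, had a median log2FC of -0.22, and their summed FPKM was 29.1 in the control library and 43.9 in the test IV library, higher through G0S2. RBP7, a retinol binding protein gene of adipose tissue, had 42 and 17 fragments, FPKM values of 7.90 and 2.93 and a log2FC of -1.43 (95% interval from -2.34 to -0.59). In mammals ADIPOQ, PLIN1, CIDEC and CIDEA are expressed mainly in fat, which was not tested for chicken muscle here, and their FPKM values summed to 57.3 in the control library and 39.6 in the test IV library, a ratio of 0.691. ADIPOQ made up most of this sum, and without it the sums were 3.92 and 3.17, a ratio of 0.810 (log2 -0.30).

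The markers of other cell types were measured in the same libraries, where 57.2% of all 14094 genes were higher in the test IV library. Summed FPKM values of the muscle markers, 6 of 10 listed, were 25670 in the control library and 26736 in the test IV library. Endothelial cells make the vessel wall where lipoprotein lipase acts, and their markers, 9 of 10 listed, summed to 65.1 and 64.0. Fibroblast and progenitor markers, 8 of 10 listed, summed to 416 and 488, and 6 of them were higher in the test IV library. Macrophage markers, 9 of 10 listed, summed to 217 and 284 with 7 higher, and C1QB was at least 2-fold higher (log2FC 1.23, 95% interval from 0.83 to 1.65). Melanocyte markers, 6 of 8 listed, summed to only 0.674 and 11.6 with all 6 higher in the test IV library, and DCT had 4 and 138 fragments. Red blood cell markers, 3 of 9 listed, summed to 24.5 and 24.2. The part of any of these in the levels of the lipid storage genes was not tested.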

How the data were processed

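Per the study's methods and processing notes, raw reads were cleaned by the authors using Seqtk, aligned to Galgal5 using TopHat 2.0.9, and summarised as fragments per gene using StringTie 1.3.0. The paper's methods also name TMM normalization. The authors deposited a whole-number fragment count and an FPKM value for each gene, and both were used as deposited. Count and FPKM together imply a relative depth of 1.09 (test group IV over control group), whereas TMM on the deposited counts gives 1.16. The deposited FPKM values were therefore not on that TMM scale. The processing notes also name HISAT2, whose role is not given in the sources used here.

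Libraries were grouped by the diet in their labels. Fold changes are FPKM ratios, and Clopper-Pearson intervals used the relative depth of 1.09 (test group IV over control group, from count and FPKM of 14277 genes). The Poisson and pair intervals (conditional odds ratio) also cover counting error only. At these depths 3 fragments, the limit a count of 0 allows, are 2.28e-05% of the fragments of the control group and 2.10e-05% of those of test group IV. With 1 library per group the dispersion that edgeR needs cannot be estimated, so no test was made. For the 14 lists, 0.1 was added to each FPKM value, and only genes whose mean FPKM was at least 0.1 were kept.

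The genes and lists were chosen with earlier results of these data known. The genes named are the chosen genes, 34 partner genes (24 listed, given where they bear on a chosen gene), list genes at least 2-fold different with at least 10 fragments, and TNNT3, MB and PVALB as a check of the tissue. Older symbols were looked up in RefSeq's gene table of GRCg7b. Alternatives were median ratio and trimmed mean scaling (30% of ratios and 5% of mean values trimmed at each end), leaving out mitochondrial genes, a pseudocount of 1, counts scaled by their totals, other low-value filters, and TMM from edgeR 4.0.16 in R 4.3.3, which was added after the data were seen. Calculations used scipy 1.17.1, pandas 2.3.3 and numpy 2.4.6 under Python 3.11.15, and figures used matplotlib 3.10.9. The interval procedure was tested on simulated data. These were Poisson counts without variation between birds or copies made by PCR, so the simulation does not address either of them.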

Additional observations from a re-analysis of the deposited data

How the results depend on the processing

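The number of genes lower in test group IV was 7 of 8 under each scaling, with 1 added to each FPKM value and in counts scaled by their totals. In the deposited scaling, 42.8% of the 14094 genes were lower. The 7 include CIDEC, for which the listing favoured a lower value. Median ratio, trimmed mean and TMM scaling moved the log2 fold changes by -0.09, -0.07 and -0.09, and leaving the mitochondrial genes out of the totals by 0.02. Under the first 3, ADIPOQ also passed 1.5-fold lower, and under TMM LPL just reached 2-fold lower. The intervals of ADIPOR1 and ADIPOR2 then included no change, and that of CIDEC lay below no change. Medians of the full lists, chosen genes included, changed sign under these 3 scalings where they were near 0 (lipolysis at 0.03, endothelial and muscle markers). Full-list medians of fatty acid uptake (-0.02) and of the transcription factors (-0.0040) did so without the mitochondrial genes. The medians given above for lipolysis (0.08), the transcription factors (0.01) and triacylglycerol synthesis (0.02) leave out the chosen genes. They were not computed under the other scalings. Each is smaller in size than a shift of -0.09, so their sign also depends on the scaling. With 1 added to each FPKM value, only PNPLA2 remained 2-fold lower (1 gene instead of 2), 3 genes instead of 4 were 1.5-fold lower, the log2 fold change of PPARG was -0.43, the median of the adipocyte markers was -0.51 instead of -0.77, 173 of all genes were 2-fold lower and 99 higher (instead of 364 and 341), 550 were 1.5-fold lower and 586 higher (instead of 907 and 1105), and the median of the melanocyte markers was 1.20 instead of 2.83. Without a filter on low values 1596 genes were 2-fold lower and 845 higher, and with at least 50 fragments over both libraries 239 and 207. The 1596 include the 796 listed genes at 0 in test group IV, whereas genes at 0 in the control group had no row. Without ADIPOQ the log2 ratio of the adipocyte sum was -0.30 instead of -0.53. Depth limits PPARG, CIDEA, PLIN1 and CIDEC, which had under 100 fragments over both libraries. No paired analysis was possible because each group has a single library.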
